A study of Homo sapiens with 24 samples.

Results

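The heat shock chaperones are proteins that help other proteins to fold, keep them from clumping and hold unstable clients ready for use. Here they were followed through 10 genes, HSPA1A, HSPA1B, HSPA8, HSPH1, DNAJB1, HSP90AA1, HSP90AB1, HSPB1, HSPD1 and HSPE1. A probe set is a group of short probes on the array that together report 1 signal, which can cover several transcripts. The members were all probe sets that the platform annotation assigned to these genes alone, with a probe set of the near-identical HSPA1A and HSPA1B counted once. There were 21 of them among the 54613 probe sets tested, for 8 genes or gene pairs. HSPA8 had no probe set of its own, since its 4 probe sets also name the small nucleolar RNA genes SNORD14C and SNORD14D, and those are described separately.

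RNA was measured in 2 human acute myeloid leukemia lines, MV4-11 and MOLM-14, each treated for 24 hours with DMSO, ABT-869, SAHA or the combination of both drugs. Each of the 8 groups held 3 arrays, labelled as biological replicates, on the Affymetrix U133 Plus 2.0 design. ABT-869, an inhibitor of the receptor tyrosine kinase FLT3, was used at 3 nM, and SAHA, an inhibitor of histone deacetylases, at 6 µM, and DMSO was the solvent control. The doses inside the combination are not stated apart from those of the single drugs. Both lines carry the internal tandem duplication of FLT3. MV4-11 has the mutated allele only, whereas MOLM-14 keeps a wild-type allele as well. Each line is a single established line, so a difference between the lines cannot be told apart from any other feature in which MV4-11 and MOLM-14 differ.

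Most of these genes are switched on by heat shock factor HSF1 when unfolded proteins accumulate. HSPA1A and HSPA1B encode the inducible HSP70 proteins and HSPA8 the constitutive one, DNAJB1 is an HSP40 that delivers clients to HSP70, and HSPH1, the HSP110, exchanges the nucleotide that lets HSP70 release its client. HSP90AA1 and HSP90AB1 encode the inducible and the constitutive cytosolic HSP90, which stabilises kinases, mutated FLT3 among them, and is itself a target of the deacetylase HDAC6. HSPD1 and HSPE1, known as HSP60 and HSP10, form the chaperonin of the mitochondrial matrix, and HSPB1, or HSP27, is a small heat shock protein that holds unfolded proteins without using ATP.

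HSF1 binds heat shock elements, which are inverted repeats of GAA and TTC. The promoter windows of RefSeq (GRCh38.p14, 250 bases before to 50 bases after each start site) held 16 windows for the 10 genes. The 8-base element GAANNTTC, or TTCNNGAA, occurred in at least 1 window of 8 of the 10 genes, against 16.2% of 27305 genes overall and 13.5% of 35116 windows. The 13-base element of 3 units, GAANNTTCNNGAA or TTCNNGAANNTTC, which contains the shorter form, occurred in HSPA8, HSP90AA1, HSP90AB1 and HSPD1, against 0.608% of genes and 0.49% of windows. The 8-base forms are each their own reverse complement and the 13-base forms are each other's, so both strands were covered. The windows of HSPH1 and HSPE1 held neither form, which says only that these letters are absent from these 300 bases. The HSPD1 and HSPE1 genes run in opposite directions from start sites 105 bases apart. The stretches below are 30 bases around an element before a start site, given 5′ to 3′ on the strand of the gene with the bases of the elements in capitals, for genes whose response is described next. They are shown so that the elements can be compared between the genes, and the TT that ends the HSP90AA1 stretch opens a further element. Several of these genes have more than 1 annotated start site, so a stretch upstream of one start site can lie inside a longer transcript.
HSPA1A, chr6:31815426-31815455 (+): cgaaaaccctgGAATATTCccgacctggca
HSPA1B, chr6:31827622-31827651 (+): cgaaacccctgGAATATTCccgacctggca
HSPA8, chr11:123062170-123062199 (-): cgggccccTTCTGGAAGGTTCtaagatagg
DNAJB1, chr19:14518426-14518455 (-): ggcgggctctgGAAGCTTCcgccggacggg
HSP90AA1, chr14:102087111-102087140 (-): gagggttcTTCCGGAAGGTTCgggaggcTT
HSP90AB1, chr6:44247823-44247852 (+): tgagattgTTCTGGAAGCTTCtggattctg
HSPB1, chr7:76302480-76302509 (+): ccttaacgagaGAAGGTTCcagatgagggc
HSPD1, chr2:197500059-197500088 (-): attTTCTGGAAAGTTCTGGAAccgagcgag

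All values are signals on a linear scale that had been scaled to the same trimmed mean on each array. Log2 changes were tested with limma, p-values were adjusted over all 54613 probe sets, and a probe set is called changed when its adjusted p is under 0.05. The median signal of an array ran from 78.5 to 99.4 in MV4-11 and from 61.2 to 80.6 in MOLM-14. The median log2 change of all probe sets was under 0.1 in size except for SAHA in MOLM-14 (-0.14), between the lines with DMSO (-0.15), and in MOLM-14 for the combination against SAHA (0.11) and for additivity (0.10), which is defined with its result. Of the 24 arrays, 4 are called here the arrays that stood apart, as the pair in each line with the largest spread of log2 deviations from their group means. Their spread was 0.304 to 0.33, against 0.235 to 0.306 on the others. These ranges overlap, and the rule picks 4 arrays in any data, so they are not shown to be outliers. They were ABT-869 replicate 2 and combination replicate 3 of MV4-11 and DMSO replicate 3 and combination replicate 1 of MOLM-14. The calls on HSPH1, HSPE1, HSP90AA1 and HSPD1 against DMSO are given with and without these 4 arrays. Among the myeloid markers FLT3, PTPRC, LYZ, SPI1, CSF1R, ITGAM and MPO, the lowest signal on any array was 210.6, while ANPEP exceeded 32 on 9 of 24 arrays. The summed signal of the myeloid list ran from 33430 to 48920, and those of the other lists (T cell, B cell, erythroid and stromal) reached at most 563.7 for B cell and 825.5 for stromal genes on any array. With 3 arrays a group, permuting arrays allows no p below 0.1, so no such test is used, and the p-values given measure the spread between these arrays only. Array signal reports transcript level relative to the rest of the sample, and fewer cells that express a gene cannot be told apart from less RNA per cell.

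With the combination, some chaperone probe sets were called higher in MV4-11, and some of HSP90AA1 were called lower in MOLM-14. In MV4-11, 5 of 21 probe sets were higher with the combination than with DMSO, for HSPH1, HSPE1, HSP90AA1 and HSPD1, and none was lower, where 4.89% of all probe sets tested were called higher. In MOLM-14 none was higher and 3 were lower, all of HSP90AA1, where 2.80% of all probe sets were called lower. Counted by the brightest probe set of each of the 8 genes or gene pairs, 3 were higher in MV4-11 and 0 lower in MOLM-14. The HSPD1 call was on a dim probe set only, and the HSP90AA1 call in MV4-11 was lost without any 1 of the 12 arrays. Most of the chaperone probe sets are bright. However, 200799_at and 243845_at lay below the median signal, and the called HSPH1 235573_at and HSPD1 241716_at lay at percentiles 65.3 and 57.2. Among the 27306 probe sets above the median signal 9.12% were called higher in MV4-11 and 5.27% lower in MOLM-14. The median log2 change over the 21 probe sets was 0.14 in MV4-11 and -0.21 in MOLM-14, beside -0.02 and 0.03 over all probe sets.

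The single drugs gave fewer calls. ABT-869 in MV4-11 called 0 of 21 probe sets by limma, with 7 at an unadjusted p under 0.05 and 5 by limma-trend, where 0.862% of all probe sets were called in either direction. SAHA in MV4-11 called 0, with 5 at an unadjusted p under 0.05 and 2 by limma-trend, against 2.46% of all. ABT-869 in MOLM-14 called 0 by limma, 0 at an unadjusted p under 0.05 and 0 by limma-trend, against 0.0165% of all. SAHA in MOLM-14 called 2 probe sets lower, both of HSP90AA1, against 2.58% of all and 4.37% of those above the median signal called lower. Each comparison with DMSO in a line shares the same 3 DMSO arrays.

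**Figure D1:**
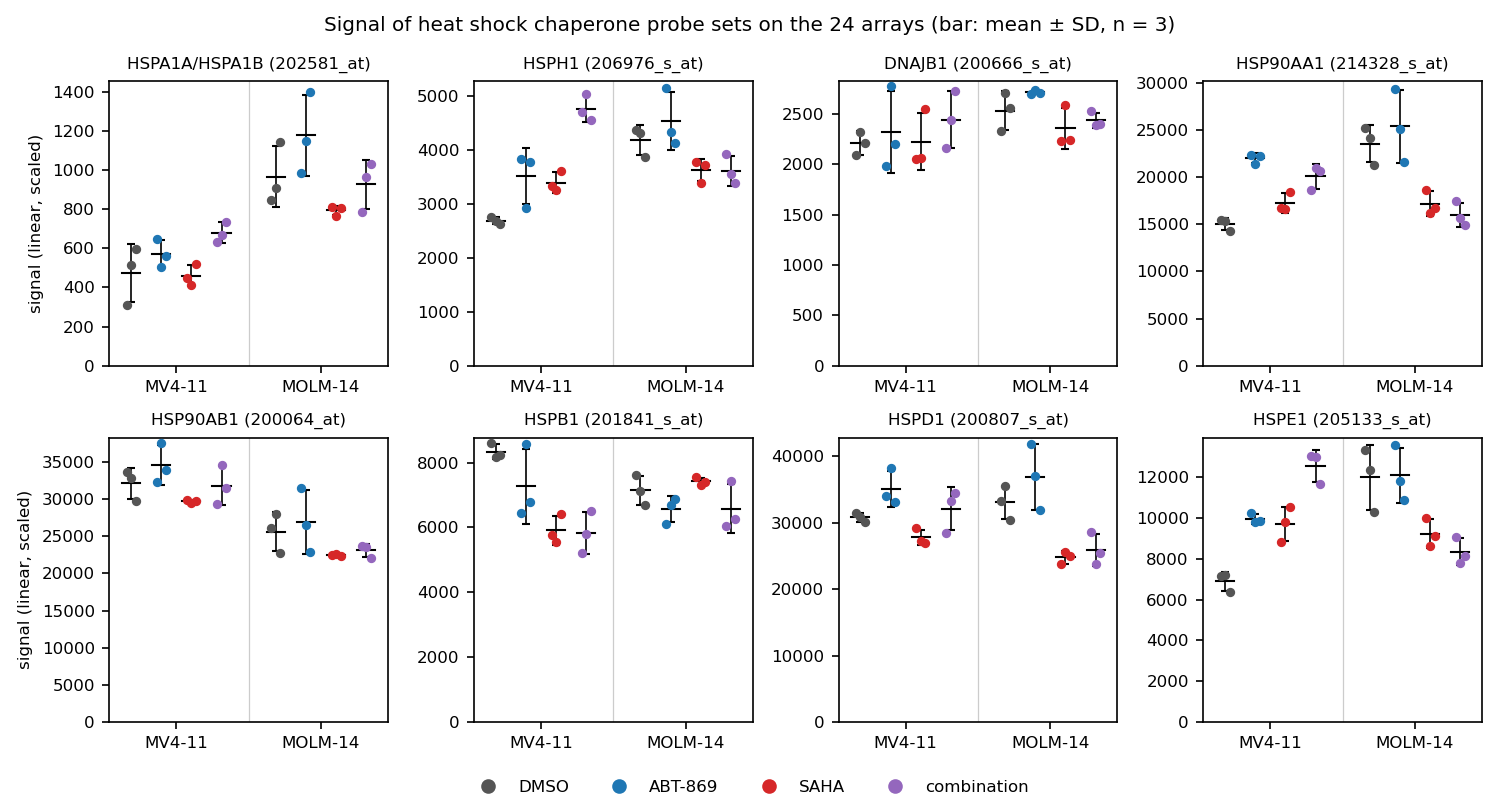
Signal of the brightest probe set of each chaperone gene on the 24 arrays, on a linear axis from 0 for each gene, with MV4-11 on the left and MOLM-14 on the right of each panel and the treatments in colour. Points are single arrays and bars give the mean ± SD of 3 arrays. HSPH1 and HSPE1 rise from DMSO to the combination in MV4-11 and do not rise in MOLM-14, while the combination arrays of HSP90AB1 and DNAJB1 overlap the DMSO arrays in each line.

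HSPH1, the nucleotide exchange factor of HSP70, rose with the combination in MV4-11 and not in MOLM-14. On the probe set 206976_s_at, the MV4-11 arrays read 2756, 2685 and 2627 with DMSO, 3842, 2929 and 3784 with ABT-869, 3325, 3249.8 and 3614 with SAHA and 4715, 5042 and 4554 with the combination. All combination arrays lay above all arrays of the other MV4-11 groups, and the single drugs lay between them and DMSO. The log2 change against DMSO was 0.83 (SE 0.13, adjusted p = 0.00593) with the combination, or 1.77-fold, while it was 0.38 (SE 0.13, adjusted p = 0.262) with ABT-869 and 0.34 (SE 0.13, adjusted p = 0.257) with SAHA, neither of which passed. In MOLM-14 the arrays read 4375, 4317 and 3866 with DMSO, 5146, 4338 and 4140 with ABT-869, 3784, 3387 and 3719 with SAHA and 3924, 3551 and 3382 with the combination. The combination arrays overlapped the DMSO arrays there, with a log2 change of -0.21 (SE 0.12, adjusted p = 0.428).

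The dimmer HSPH1 probe set 235573_at read 101, 165 and 160 with DMSO and 244, 230.2 and 239 with the combination in MV4-11, a log2 change of 0.78 (SE 0.20, adjusted p = 0.0443). These groups did not overlap, but the adjusted p was under 0.05 without only 1 of the 12 MV4-11 arrays, SAHA replicate 2, and ran from 0.049 to 0.11. Without the 4 arrays that stood apart the change was 0.77 (adjusted p = 0.123). The third probe set, 208744_x_at, had a log2 change of 0.67 (SE 0.30, adjusted p = 0.221) in MV4-11 and was not called. Its combination replicate 3 read 1349 beside 2427 and 2712 on the other combination arrays. The call on 206976_s_at passed with each of the 12 arrays left out in turn, with adjusted p from 0.00373 to 0.0265, and without the 4 arrays that stood apart the change was 0.86 (adjusted p = 0.009). Fitted on the 6 arrays of DMSO and the combination alone, which have fewer degrees of freedom, it had an adjusted p of 0.0623.

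The inducible HSP70 genes HSPA1A and HSPA1B were higher in MOLM-14 than in MV4-11, and no treatment changed them past the threshold. Their probe set 202581_at cannot tell the genes apart. In MV4-11 it read 308, 513 and 595 with DMSO, 648, 506 and 559 with ABT-869, 449, 412 and 521 with SAHA and 631, 670.3 and 737 with the combination. The combination arrays lay above the DMSO arrays, but DMSO replicate 1 was low and the log2 change of 0.58 (SE 0.23, adjusted p = 0.18) did not pass. In MOLM-14 it read 849, 908 and 1145 with DMSO, 987, 1150.3 and 1399 with ABT-869, 813, 767 and 804 with SAHA and 786, 962 and 1032 with the combination. All 12 MOLM-14 arrays lay above all 12 MV4-11 arrays. The log2 changes in MOLM-14 were 0.28, -0.27 and -0.06 with ABT-869, SAHA and the combination, and none was called. The other probe set of the pair, 200799_at, was under 32 on 16 of 24 arrays and did not follow the first (r = -0.2 over 24 arrays after the mean of each line was taken off, a description). The probe set 200800_s_at, which names HSPA1L beside the pair, read 286, 288 and 299.7 with DMSO and 508, 544 and 392 with the combination in MV4-11, a log2 change of 0.71 (SE 0.22, adjusted p = 0.0765).

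DNAJB1, the HSP40 partner of HSP70, was not called changed by any treatment in either line. Over the 24 arrays its probe set 200666_s_at ran from 1985 to 2777, and the range of each group overlapped that of the group next to it in the order of the means. Its log2 change with the combination was 0.14 in MV4-11 (95% interval -0.23 to 0.51) and -0.05 in MOLM-14 (-0.29 to 0.19). The probe set 200664_s_at gave 0.10 and 0.06, so a log2 change of 1 lay outside the intervals of both probe sets in both lines.

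HSPE1, the HSP10 lid of the mitochondrial chaperonin, showed the largest response to the combination in MV4-11 among the brightest probe sets of the 8 genes. It had a single probe set, 205133_s_at, so no other reading of the gene could be set beside it. In MV4-11 it read 7166, 7195 and 6366 with DMSO, 10248, 9828 and 9838 with ABT-869, 8845, 9788 and 10534 with SAHA and 13023, 12992 and 11649 with the combination. Every treated array lay above every DMSO array, and the combination arrays lay above those of either single drug. The log2 change was 0.86 (SE 0.12, adjusted p = 0.00288) with the combination, or 1.82-fold, beside 0.53 (SE 0.12, adjusted p = 0.0879) with ABT-869 and 0.49 (SE 0.12, adjusted p = 0.0702) with SAHA. The combination call passed with each of the 12 arrays left out in turn (adjusted p from 0.00537 to 0.015), and without the 4 arrays that stood apart the change was 0.92 (adjusted p = 0.0111). On the 6 arrays of the groups compared alone the adjusted p was 0.0661.

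In MOLM-14 HSPE1 read lower with SAHA and the combination, and neither difference passed. It read 13365, 12348 and 10275 with DMSO, 13582, 11805 and 10908 with ABT-869, 9983, 8621 and 9128 with SAHA and 9088, 7799 and 8154 with the combination. The SAHA and combination arrays lay below all DMSO arrays, with log2 changes of -0.37 (SE 0.14, adjusted p = 0.175) and -0.52 (SE 0.14, adjusted p = 0.0683), while ABT-869 gave 0.01. The mean of MOLM-14 cells with DMSO, 12000 ± 1580 (SD, n = 3), was close to that of MV4-11 cells under the combination, 12550 ± 784 (SD, n = 3), and the ranges of these groups overlapped.

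HSPD1, the HSP60 barrel that pairs with HSPE1, was not called with the combination in MV4-11 on the bright probe sets. The brightest, 200807_s_at, read 31537, 30858 and 30109 with DMSO and 28445, 33341 and 34564 with the combination in MV4-11, a log2 change of 0.05 (SE 0.12, adjusted p = 0.847) with a 95% interval of -0.22 to 0.33. In MOLM-14 it read 33221, 35548 and 30501 with DMSO, 23792, 25679.7 and 24971 with SAHA and 28589.7, 23727 and 25393 with the combination. Both MOLM-14 groups lay below the DMSO arrays, with log2 changes of -0.41 (SE 0.13, adjusted p = 0.113) and -0.35 (SE 0.13, adjusted p = 0.181) that did not pass. The probe set 200806_s_at gave -0.16 in MV4-11 and -0.21 in MOLM-14, neither called.

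A dim HSPD1 probe set, 241716_at, was called in MV4-11. It read 57.1, 78.9 and 56.7 with DMSO, 145, 127 and 208 with ABT-869, 138, 134 and 143 with SAHA and 137, 206 and 505 with the combination. The combination arrays spread widely, and replicate 3, which is among the 4 arrays that stood apart, was the highest. The log2 change with the combination was 1.93 (SE 0.41, adjusted p = 0.0209), and without the 4 arrays it was 1.41 (adjusted p = 0.0233). The call was lost without DMSO replicate 1 or DMSO replicate 3, with adjusted p up to 0.0699. Over the 24 arrays this probe set followed the brightest one weakly (r = 0.326 after the mean of each line was taken off). The remaining probe sets 243372_at and 243845_at were not called with any treatment, and the latter was under 32 on 14 of 24 arrays.

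HSP90AA1, the inducible cytosolic HSP90, rose with the combination in MV4-11 on 1 of its 4 probe sets and fell with SAHA and the combination in MOLM-14 on 2 and 3 of them. On 214328_s_at the MV4-11 arrays read 15491, 15335 and 14254 with DMSO, 22361, 21392 and 22246 with ABT-869, 16681, 16563 and 18436 with SAHA and 18601, 20994 and 20627 with the combination. ABT-869 gave the highest arrays, and every treated array lay above every DMSO array. The log2 change was 0.55 (SE 0.11, adjusted p = 0.0619) with ABT-869, 0.20 (SE 0.11, adjusted p = 0.441) with SAHA and 0.42 (SE 0.11, adjusted p = 0.0467) with the combination. The last is the only one that passed, and it was lost without any 1 of the 12 MV4-11 arrays (adjusted p from 0.0571 to 0.139) and without the 4 arrays that stood apart, at 0.40 (adjusted p = 0.109). The other 3 probe sets gave 0.29, 0.20 and 0.02 with the combination, none called. On the last of these, 211968_s_at, combination replicate 3 read 5486 beside 7389 and 8836 on the other combination arrays. With ABT-869 all 4 probe sets lay above DMSO on every array, by 0.48 to 0.69 for the other 3, with adjusted p from 0.079 to 0.251.

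In MOLM-14 the probe set 211969_at of HSP90AA1 read 19099, 17933 and 16137 with DMSO, 21102, 17692 and 16711 with ABT-869, 12353, 9547 and 10529 with SAHA and 11164, 10000 and 9762 with the combination. SAHA and combination arrays lay below all DMSO and all ABT-869 arrays. The log2 change was -0.72 (SE 0.14, adjusted p = 0.0246) with SAHA and -0.78 (SE 0.14, adjusted p = 0.0156) with the combination. On 211968_s_at the changes were -0.59 (SE 0.13, adjusted p = 0.0346) and -0.92 (SE 0.13, adjusted p = 0.00625). The combination also gave a called change on 210211_s_at of -0.65 (SE 0.16, adjusted p = 0.0447), and 214328_s_at missed the threshold at -0.56 (SE 0.14, adjusted p = 0.0535).

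The fall of HSP90AA1 with the combination on 211968_s_at passed with each of the 12 MOLM-14 arrays left out in turn (adjusted p from 0.0113 to 0.0298). On 211969_at it was lost without DMSO replicates 1 or 2 or combination replicates 2 or 3, at most at 0.0646, and on 210211_s_at it was lost without 9 of 12 arrays and held without DMSO replicate 3, ABT-869 replicate 1 or ABT-869 replicate 3 (range 0.029 to 0.146). Without the 4 arrays that stood apart the 3 changes were -0.98 (adjusted p = 0.0293), -0.91 (adjusted p = 0.0414) and -0.81 (adjusted p = 0.0635). Fitted on the arrays of DMSO and the combination alone, their adjusted p was 0.107, 0.108 and 0.153. With every array centred on its median it was 0.0112, 0.0242 and 0.0648, so the call on 210211_s_at was lost. The SAHA calls were less firm. On 211969_at SAHA lost the call without DMSO replicates 1 or 2 or SAHA replicates 2 or 3 (up to 0.0916), and on 211968_s_at without 9 of 12 arrays, all but ABT-869 replicate 1, combination replicate 1 and combination replicate 3 (up to 0.117). Without the 4 arrays that stood apart the SAHA changes were -0.78 (adjusted p = 0.0483) and -0.59 (adjusted p = 0.087), so the latter call was lost. The median signal of the MOLM-14 arrays was 69.2, 77.6 and 79.3 with DMSO and 65.1, 63.6 and 61.2 with SAHA. With every array centred on its own median log2 signal, the SAHA changes were -0.47 (adjusted p = 0.124) and -0.34 (adjusted p = 0.239).

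HSP90AB1, the constitutive cytosolic HSP90, did not pass in any comparison of a treatment with DMSO. On 200064_at MV4-11 read 33707, 32856 and 29792 with DMSO and 29301, 34642 and 31548 with the combination, and MOLM-14 read 26066, 27954 and 22766 with DMSO and 23694, 23561 and 22099 with the combination. The groups overlapped in both lines. The 95% interval of the log2 change with the combination was -0.28 to 0.25 in MV4-11 and -0.45 to 0.17 in MOLM-14. Of its 3 promoter windows 1 holds the element of 3 units shown above, as does 1 of the 2 windows of HSP90AA1. The probe set 1557910_at had a single low array in MV4-11, combination replicate 3 at 13359 beside 24974 and 29126, and the same array was low on the HSPD1 probe set 200806_s_at, at 9691 beside 17293 and 20506. The ACTB control ratio (3′ probe set over 5′), a sign of RNA integrity, was 1.38 on that array and 1.06 to 1.31 on the others, and its part in these values was not tested.

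HSPB1, the small heat shock protein, read lower with SAHA and the combination in MV4-11, and neither difference passed. It read 8598, 8182 and 8241 with DMSO, 6449.5, 8582 and 6783 with ABT-869, 5758, 5551 and 6413 with SAHA and 5202, 5795 and 6509.8 with the combination. The SAHA and combination arrays lay below all DMSO arrays. The log2 changes of -0.50 (SE 0.15, adjusted p = 0.124) with SAHA and -0.52 (SE 0.15, adjusted p = 0.0597) with the combination did not pass. In MOLM-14 the changes were -0.12, 0.06 and -0.12 with ABT-869, SAHA and the combination, with groups that overlapped DMSO in each case. The difference between the lines in these responses was 0.56 (SE 0.17, adjusted p = 0.144) for SAHA and 0.40 (SE 0.17, adjusted p = 0.217) for the combination.

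**Figure D2:**
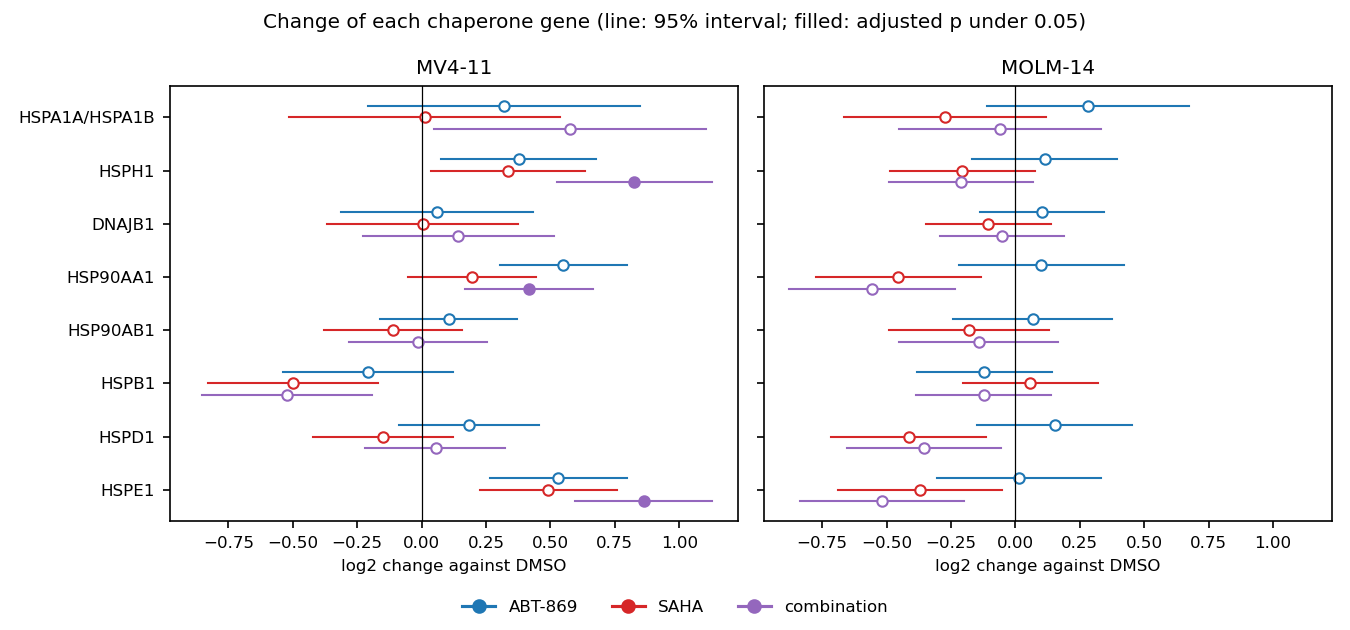
Log2 change against DMSO of the brightest probe set of each chaperone gene, with MV4-11 in the left and MOLM-14 in the right panel on the same horizontal axis. Points are estimates from 3 against 3 arrays, lines are 95% intervals and filled points have an adjusted p under 0.05. The filled points are HSPH1, HSP90AA1 and HSPE1 with the combination in MV4-11.

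With DMSO alone, several chaperone transcripts were higher in MOLM-14 than in MV4-11. In all, 7 of 21 probe sets were higher in MOLM-14 and none lower, where 4.96% of all probe sets, and 9.63% of those above the median signal, were called higher. They belong to HSPA1A and HSPA1B, HSPH1, HSP90AA1 and HSPE1. The log2 difference was 1.08 (SE 0.20, adjusted p = 0.00238) for HSPA1A and HSPA1B, 0.64 (SE 0.12, adjusted p = 0.00189) for HSPH1, 0.64 (SE 0.12, adjusted p = 0.00147) for HSP90AA1 on 214328_s_at and 0.79 (SE 0.12, adjusted p = 0.000375) for HSPE1. These 4 calls passed with each of the 24 arrays left out in turn and without the 4 arrays that stood apart (adjusted p from 0.000779 to 0.0193). The HSP90AA1 call on 211969_at did so as well, while that on 210211_s_at was lost without 20 of 24 arrays and held without MV4-11 combination replicate 2 or MOLM-14 DMSO replicate 3, ABT-869 replicate 1 or ABT-869 replicate 3 (adjusted p up to 0.17) and that on HSPH1 235573_at without MV4-11 DMSO replicate 1 or MOLM-14 DMSO replicates 1 or 3 (up to 0.155) and without the 4 arrays that stood apart, at 0.54 (adjusted p = 0.114). Fitted on the 6 DMSO arrays alone, none of the 21 was called. HSP90AB1 had a difference of -0.33 (SE 0.12, adjusted p = 0.0854) and HSPB1 of -0.23 (SE 0.12, adjusted p = 0.299), neither called. HSPD1 on 200807_s_at had 0.10 and DNAJB1 on 200666_s_at 0.20.

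The response to the combination differed between the lines for HSPE1, HSPH1 and HSP90AA1. The difference, MOLM-14 minus MV4-11, was called lower for 7 of 21 probe sets and higher for none, where 3.41% of all probe sets and 6.61% of those above the median signal were called lower. It was -1.38 (SE 0.17, adjusted p = 9.88e-05) for HSPE1 and -1.04 (SE 0.17, adjusted p = 0.000845) for HSPH1. For HSP90AA1 it was -0.97 (SE 0.16, adjusted p = 0.00119) on 214328_s_at, -0.94 (SE 0.18, adjusted p = 0.00378) on 210211_s_at and -0.98 (SE 0.16, adjusted p = 0.00104) on 211969_at. These 5 calls passed with each of the 24 arrays left out in turn, and without the 4 arrays that stood apart the HSPE1 and HSPH1 differences were -1.60 (adjusted p = 0.000323) and -1.19 (adjusted p = 0.00117), and the 3 of HSP90AA1 passed as well (adjusted p from 0.00392 to 0.00636). The calls on HSPH1 235573_at (-0.90 SE 0.26, adjusted p = 0.0449) and HSP90AA1 211968_s_at (-0.94 SE 0.27, adjusted p = 0.0417) were lost without 20 and 19 of the 24 arrays, with adjusted p up to 0.114 and 0.108. The former held only without MV4-11 DMSO replicates 2 or 3, MV4-11 SAHA replicate 2 or MOLM-14 combination replicate 2, and the latter only without any of the MV4-11 ABT-869 arrays, MV4-11 combination replicate 3 or MOLM-14 DMSO replicate 2. Without the 4 arrays that stood apart they were -0.63 (adjusted p = 0.271) and -1.19 (adjusted p = 0.00324). HSPA1A and HSPA1B had a difference of -0.63 (SE 0.29, adjusted p = 0.249), HSPD1 of -0.41 (SE 0.16, adjusted p = 0.174), DNAJB1 of -0.19 and HSP90AB1 of -0.13, none called. The baseline difference and the difference in response share the DMSO arrays of both lines, so a DMSO array that reads high in MOLM-14 raises the former and lowers the latter.

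**Figure D3:**
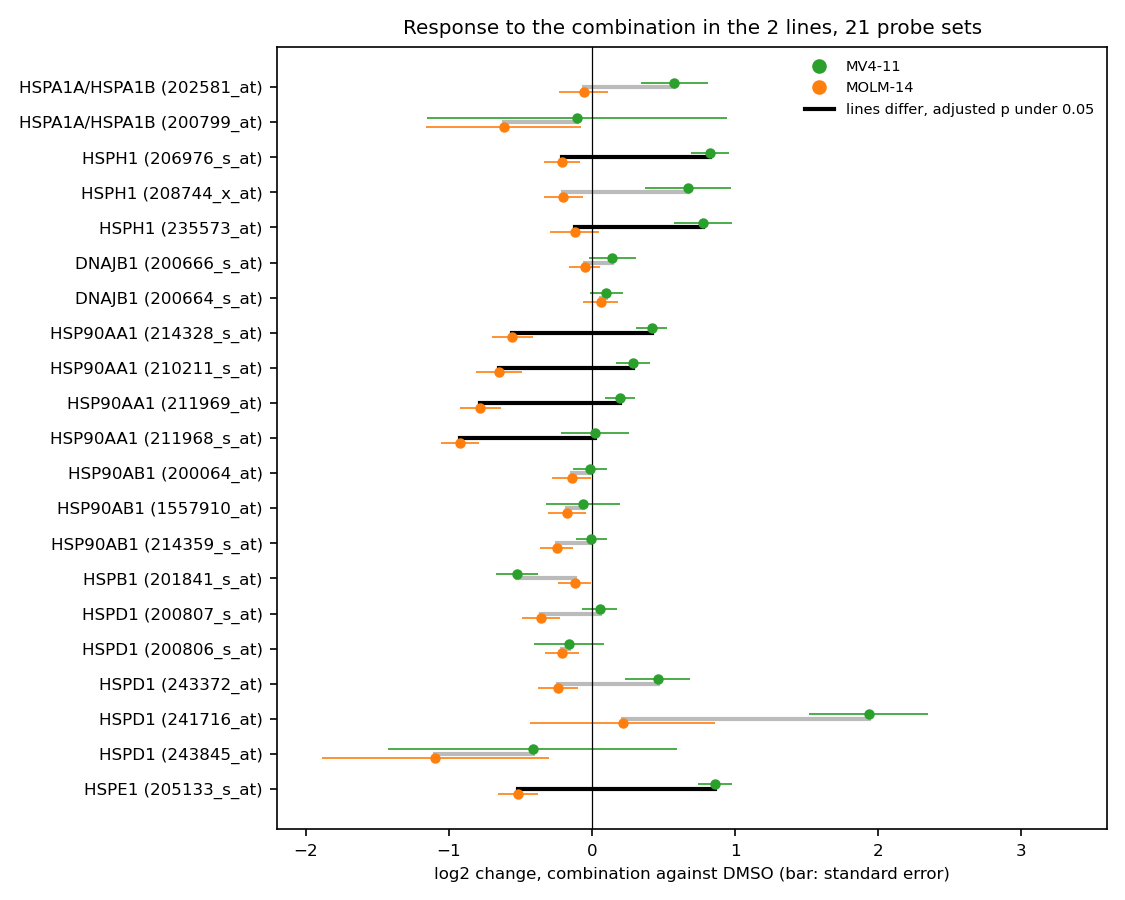
Log2 change with the combination against DMSO for each of the 21 chaperone probe sets, in MV4-11 (green) and MOLM-14 (orange), with standard errors as bars. A black connecting line marks a difference between the lines with an adjusted p under 0.05. The 7 black lines belong to HSPH1, HSP90AA1 and HSPE1.

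For SAHA alone the lines differed on 2 probe sets, both lower in MOLM-14. Of all probe sets 0.630% were called lower, and of those above the median signal 1.15%. They were HSPE1 with -0.86 (SE 0.17, adjusted p = 0.0174) and HSP90AA1 211969_at with -0.68 (SE 0.16, adjusted p = 0.045). The HSPE1 call was lost without MOLM-14 DMSO replicates 1 or 2 or SAHA replicate 2 (adjusted p up to 0.0595), and the HSP90AA1 call without 18 of 24 arrays, all but MV4-11 combination replicate 3 and MOLM-14 DMSO replicate 3, ABT-869 replicates 1 and 3, SAHA replicate 1 and combination replicate 1 (up to 0.131). With arrays centred on their medians neither passed, at -0.70 (adjusted p = 0.146) and -0.52 (adjusted p = 0.325). For ABT-869 the difference between the lines called 0 of 21 probe sets by limma, with 4 at an unadjusted p under 0.05 and 0 by limma-trend, against 0.352% of all.

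Set against the single drugs, the combination was called different from ABT-869 in MOLM-14. All 4 HSP90AA1 probe sets were lower with the combination than with ABT-869 there, from -0.66 (SE 0.14, adjusted p = 0.0234) to -1.13 (SE 0.13, adjusted p = 0.00203). No other of the 21 was called, where 3.54% of all probe sets and 6.61% of those above the median signal were called lower. The count fell to 2 without ABT-869 replicate 1, ABT-869 replicate 2, combination replicate 2 or combination replicate 3. HSPD1 on 200807_s_at and HSPE1 came close, at -0.51 (SE 0.13, adjusted p = 0.0501) and -0.53 (SE 0.14, adjusted p = 0.0518). In MV4-11 the same comparison called 0 by limma, with 5 at an unadjusted p under 0.05 and 4 by limma-trend, against 3.70% of all in either direction. The largest chaperone changes there among the brightest probe sets were 0.45 (SE 0.13, adjusted p = 0.11) for HSPH1 and 0.33 (SE 0.12, adjusted p = 0.184) for HSPE1.

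Against SAHA the combination called 0 of 21 probe sets in MV4-11, with 3 at an unadjusted p under 0.05 and 2 by limma-trend, against 0.749% of all. HSPA1A and HSPA1B differed by 0.56 (SE 0.23, adjusted p = 0.342), HSPH1 by 0.49 (SE 0.13, adjusted p = 0.146) and HSPE1 by 0.37 (SE 0.12, adjusted p = 0.21) there. In MOLM-14 it called 0, with 1 at an unadjusted p under 0.05 and 0 by limma-trend, against 0.0146%. Additivity, the combination's log2 change minus those of both single drugs added up, called 0 in each line, with 1 at an unadjusted p under 0.05 and 0 by limma-trend in each, against 0.0220% of all in MV4-11 and 0.0128% in MOLM-14. For HSPH1 in MV4-11 this quantity was 0.11 with a 95% interval of -0.31 to 0.54, and for HSPE1 -0.16 with an interval of -0.54 to 0.22.

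The probe sets that name HSPA8 together with SNORD14C and SNORD14D, snoRNA genes known to lie in introns of HSPA8, also rose with the combination in MV4-11 and not in MOLM-14. They are not counted among the 21. On 221891_x_at, the brightest of them, MV4-11 read 21887, 22598 and 21531 with DMSO, 33266, 34289 and 31314 with ABT-869, 29670.1, 29232 and 28216 with SAHA and 34206, 36152 and 36659 with the combination. MOLM-14 read 28080.5, 32600.2 and 27556 with DMSO, 32737, 29162 and 27781 with ABT-869, 24005, 24320.1 and 23718 with SAHA and 26926, 23688 and 23662 with the combination. In MV4-11 every treated array lay above every DMSO array, with the combination arrays overlapping those of ABT-869, and in MOLM-14 the combination arrays lay below the DMSO arrays. Its log2 change with the combination was 0.70 (SE 0.10, adjusted p = 0.00379) in MV4-11 and -0.25 (SE 0.12, adjusted p = 0.3) in MOLM-14. With the combination in MV4-11 all 4 probe sets were called higher, by 0.63 to 0.88 (SE 0.11, adjusted p = 0.00193), and with ABT-869 3 of 4 were, by 0.58 to 0.65. None of the 4 was called against DMSO in MOLM-14. The difference between the lines in the response to the combination was called lower for all 4, at -0.78 to -1.07 (SE 0.12, adjusted p = 7.25e-05). With DMSO all 4 were higher in MOLM-14, by 0.40 to 0.58.

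Among 78 other genes of the pathway (chaperones, co-chaperones, mitochondrial proteases, heat shock factors with their regulators and other heat-inducible genes), the combination raised 11 and lowered 5 in MV4-11 and raised 6 and lowered 7 in MOLM-14, with median log2 changes of 0.03 and -0.12. Of all probe sets above the median signal, 9.12% were called higher and 7.2% lower in MV4-11, and 5.69% higher and 5.27% lower in MOLM-14, and the counts of the lists are read against these shares. The HSP90 co-chaperones held 4 of 11 called higher in MV4-11 and 2 of 11 in MOLM-14, with none lower, beside 9.12% and 5.69% of the brighter probe sets called higher. CDC37, which brings kinases to HSP90, rose by 0.55 and 0.90 (SE 0.12, adjusted p = 0.00221) with SAHA and the combination in MV4-11, and by 0.53 and 0.47 (SE 0.12, adjusted p = 0.0445) in MOLM-14. STIP1, which links HSP70 to HSP90, rose by 0.81 (SE 0.14, adjusted p = 0.00841) with the combination in MV4-11. STUB1, a ubiquitin ligase for chaperone clients, rose with the combination by 0.78 (SE 0.14, adjusted p = 0.00782) in MV4-11 and 0.46 (SE 0.10, adjusted p = 0.028) in MOLM-14. Of 12 J-domain co-chaperones 1 rose and 1 fell in each line, which is near the shares over the brighter probe sets. DNAJA1, an HSP40, rose in MV4-11 by 0.74 (SE 0.14, adjusted p = 0.0131). Calls on the 78 genes, here and below, come from the main fit and were not repeated with arrays left out or other settings.

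HSPA6, an inducible HSP70 gene, responded to SAHA in both lines. In MV4-11 it read 1536, 1478 and 1444 with DMSO, 2195, 2148 and 2679 with ABT-869, 3490.4, 4224 and 3836 with SAHA and 2694, 2326 and 2116 with the combination. In MOLM-14 it read 1014, 830.3 and 1164 with DMSO, 800, 842 and 624 with ABT-869, 2151, 2658 and 2493 with SAHA and 2686, 2648 and 2116 with the combination. SAHA arrays lay above all DMSO arrays in both lines, and in MV4-11 they lay above the combination arrays too. In MV4-11, however, HSPA6 was not called for the combination against SAHA, nor for additivity. The log2 change was 1.37 (SE 0.14, adjusted p = 0.00317) with SAHA and 0.67 (SE 0.14, adjusted p = 0.0209) with the combination in MV4-11, and 1.29 (SE 0.18, adjusted p = 0.0085) and 1.31 (SE 0.18, adjusted p = 0.00589) in MOLM-14. Of the 15 genes of the HSP70 list, HSPA6 alone was called higher with SAHA, in each line. With ABT-869 the HSPA6 arrays lay above DMSO in MV4-11 and not in MOLM-14, and the responses differed between the lines by -1.06 (SE 0.22, adjusted p = 0.0491). HSF1 itself was not called, with 0.16 (SE 0.17, adjusted p = 0.651) in MV4-11 and 0.12 (SE 0.16, adjusted p = 0.784) in MOLM-14 with the combination. HDAC6, the deacetylase that acts on HSP90, had -0.45 (SE 0.12, adjusted p = 0.0522) and -0.42 (SE 0.13, adjusted p = 0.111).

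Of the 10 mitochondrial chaperones and proteases, 2 rose and 2 fell with the combination in MV4-11, 4 fell and 0 rose in MOLM-14, and 6 were not called in each line. The shares of the brighter probe sets were 9.12% higher and 7.2% lower in MV4-11 and 5.27% lower in MOLM-14. TRAP1, the mitochondrial HSP90, rose in MV4-11 by 0.61 (SE 0.12, adjusted p = 0.0121) and fell in MOLM-14, with a change of -0.74 (SE 0.10, adjusted p = 0.00648), a difference between the lines of -1.35 (SE 0.13, adjusted p = 1.72e-05). LONP1, a matrix protease, fell in both lines, with -0.67 (SE 0.10, adjusted p = 0.00531) in MV4-11 and -0.47 (SE 0.12, adjusted p = 0.0462) in MOLM-14. HSPA9, the mitochondrial HSP70, fell in MOLM-14 with -0.43 (SE 0.10, adjusted p = 0.046). Of the 12 genes of the cytosolic chaperonin and prefoldin list, 2 rose in MV4-11, CCT3 with 0.61 (SE 0.11, adjusted p = 0.0109) and CCT7 with 0.60 (SE 0.12, adjusted p = 0.0121), and 1 rose in MOLM-14, PFDN5. The 8 other small heat shock protein genes were all dim and none was called. Of 12 other heat-inducible genes, which overlap the lists above, 3 rose and 2 fell in MV4-11 with the combination (9.12% and 7.2% of the brighter probe sets did so) and 2 rose in MOLM-14 (5.69%). Among them were IER5, a regulator of HSF1, which rose in MOLM-14 with 0.62 (SE 0.10, adjusted p = 0.0113), and SERPINH1, a collagen chaperone, which fell in MV4-11 with -0.71 (SE 0.16, adjusted p = 0.0248). Of 6 heat shock factors and regulators, SIRT1 fell with the combination in both lines, with -0.63 (SE 0.12, adjusted p = 0.0133) and -0.83 (SE 0.13, adjusted p = 0.00784).

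**Figure D4:**
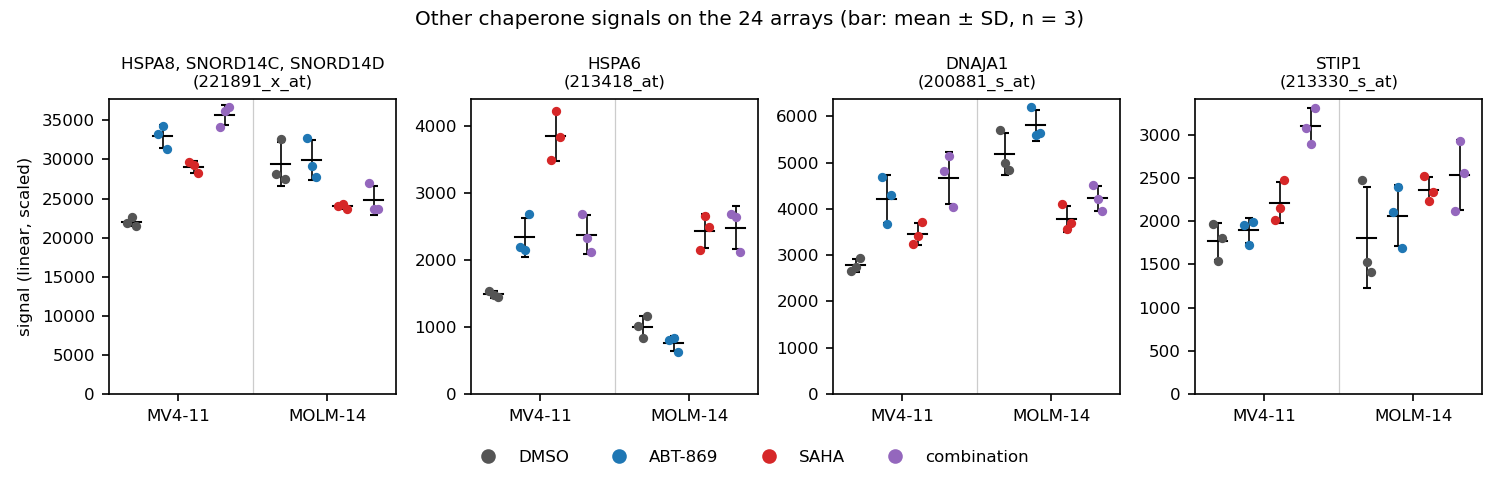
Signal on the 24 arrays of the brightest probe set that names HSPA8 with SNORD14C and SNORD14D, and of HSPA6, DNAJA1 and STIP1, on linear axes from 0. Points are single arrays and bars give the mean ± SD of 3 arrays. HSPA6 is highest with SAHA in MV4-11, and the HSPA8 probe set has its highest mean with the combination in MV4-11.

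Correlations between the chaperones over the arrays ran from -0.656 to 0.908 among 28 pairs. After the mean of each line was taken off the log2 signals, the brightest probe sets of HSPH1 and HSPE1 had a Pearson correlation of 0.908 over 24 arrays, HSP90AB1 and HSPD1 of 0.856, HSP90AA1 and HSPE1 of 0.84 and HSP90AA1 and HSPD1 of 0.832. HSPB1 ran against HSPH1 at -0.656 and against HSPE1 at -0.531. HSPA1A and HSPA1B stood at 0.013 with HSP90AB1, HSPB1 at 0.05 with HSPD1, and HSPH1 at 0.25 with DNAJB1. HSPD1 and HSPE1, partners in the chaperonin, stood at 0.531, and HSP90AA1 and HSP90AB1 at 0.713. The arrays share their treatments and scaling, so these values are descriptions. They also rest on the probe set taken for each gene. By the same measure HSPD1 200807_s_at stood at 0.302 with 200806_s_at, and DNAJB1 200666_s_at at -0.09 with 200664_s_at. HSP90AB1 200064_at stood at 0.421 with 1557910_at and 0.781 with 214359_s_at. The brightest probe set of HSPH1 stood at 0.584 and 0.787 with its others, and that of HSP90AA1 at 0.793 to 0.962. The 5 genes outside the members with the pattern most like HSPA1A and HSPA1B were MED23 (0.892), POLR1C (0.826), PAPPA (0.819), EFR3A (0.813) and GUSBP4 (0.813). For HSPD1 they were TRIM28 (0.913), TAF4B (0.911), NELFCD (0.908), ANKLE1 (0.901) and MBD3 (0.899), each over the 24 arrays.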

How the data were processed

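The values are the series' processed table, 1 column for each of the 24 arrays. The authors deposited a linear signal intensity per probe set, scaled so that the mean after trimming 2% at each end was 500.06 or 500.07 on every array, and the software that made it was not given in the sources used here, so its background correction is unknown. The 62 control probe sets were left out, which leaves 54613 of 54675. Of these, the platform annotation gives 1 gene to 41091, several to 1801 and none to 11721. Signals under 1 (0.209% of values) were raised to 1 and log2 was taken. The number of arrays limits the precision.

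Samples were grouped by the labels. Contrasts within a line came from limma (version 3.58.1, R 4.3.3) fitted to the 12 arrays and 4 groups of that line, and contrasts between lines from 1 fit to all 24 arrays, with moderated variances and Benjamini-Hochberg adjustment over all probe sets. Intervals are at 95%. The fit was run on simulated data with independent noise for each probe set and array, as a check of the computation only. The study's methods named a 2-fold rule, which is among the alternatives, with other normalizations, floors, filters, limma-trend, a replicate block, other sets of samples and each array left out.

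Named genes were the members, pathway genes called against DMSO (at most 4 per list and line with the largest change), and for HSPA1A and HSPA1B and for HSPD1 the 5 most alike genes. The probe set with the highest mean stands for a gene. Members and lists were chosen with earlier results of these data known. The labels give separate biological replicates but not how cultures were split. Promoter windows were searched with Python 3.11.15, and figures were drawn with matplotlib 3.10.9.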

Additional observations from a re-analysis of the deposited data

Results flagged for a closer look

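The response differed between MV4-11 and MOLM-14 by the test of the difference itself in 9 cases, each given as the log2 response in MOLM-14 minus that in MV4-11. With the combination it was -1.38 for HSPE1, -1.04 for HSPH1 206976_s_at, -0.90 for HSPH1 235573_at, and -0.97, -0.94, -0.98 and -0.94 for HSP90AA1 on 214328_s_at, 210211_s_at, 211969_at and 211968_s_at. With SAHA it was -0.86 for HSPE1 and -0.68 for HSP90AA1 211969_at. The causes were not tested.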

How the results depend on the processing

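Of the 21 chaperone probe sets, none reversed the direction of a called change against DMSO or a called difference between the lines in the alternatives run. Results that were not called were not checked for direction. Many counts of called probe sets moved by over 1.5 times, and the causes were not tested. With signals under 32 raised to 32, the count was 4 (from 0) for ABT-869 against DMSO in MV4-11, 2 (from 0) for SAHA against DMSO in MV4-11, 8 (from 5) for combination against DMSO in MV4-11, 3 (from 0) for combination against ABT-869 in MV4-11, 3 (from 0) for combination against SAHA in MV4-11, 5 (from 2) for SAHA against DMSO in MOLM-14, 5 (from 3) for combination against DMSO in MOLM-14, 9 (from 4) for combination against ABT-869 in MOLM-14, 11 (from 7) for MOLM-14 against MV4-11 with DMSO and 5 (from 2) for SAHA response in MOLM-14 minus MV4-11. With only the probe sets above the median signal, the count was 4 (from 0) for ABT-869 against DMSO in MV4-11, 2 (from 0) for SAHA against DMSO in MV4-11, 3 (from 0) for combination against ABT-869 in MV4-11, 2 (from 0) for combination against SAHA in MV4-11, 5 (from 2) for SAHA against DMSO in MOLM-14, 6 (from 3) for combination against DMSO in MOLM-14, 11 (from 4) for combination against ABT-869 in MOLM-14, 12 (from 7) for MOLM-14 against MV4-11 with DMSO and 6 (from 2) for SAHA response in MOLM-14 minus MV4-11. By limma-trend, the count was 5 (from 0) for ABT-869 against DMSO in MV4-11, 2 (from 0) for SAHA against DMSO in MV4-11, 4 (from 0) for combination against ABT-869 in MV4-11, 2 (from 0) for combination against SAHA in MV4-11, 6 (from 2) for SAHA against DMSO in MOLM-14, 6 (from 3) for combination against DMSO in MOLM-14, 10 (from 4) for combination against ABT-869 in MOLM-14, 11 (from 7) for MOLM-14 against MV4-11 with DMSO and 6 (from 2) for SAHA response in MOLM-14 minus MV4-11. In 1 fit over all arrays, the count was 3 (from 0) for ABT-869 against DMSO in MV4-11, 2 (from 0) for SAHA against DMSO in MV4-11, 2 (from 0) for combination against ABT-869 in MV4-11, 1 (from 0) for combination against SAHA in MV4-11, 4 (from 2) for SAHA against DMSO in MOLM-14 and 5 (from 3) for combination against DMSO in MOLM-14. Without the 4 arrays that stood apart, the count was 1 (from 0) for ABT-869 against DMSO in MV4-11 and 1 (from 2) for SAHA against DMSO in MOLM-14. By the 2-fold rule, with no test, the count was 3 (from 0) for ABT-869 against DMSO in MV4-11, 1 (from 0) for SAHA against DMSO in MV4-11, 1 (from 5) for combination against DMSO in MV4-11, 1 (from 2) for SAHA against DMSO in MOLM-14 and 1 (from 3) for combination against DMSO in MOLM-14. With the 5 probe sets of shared annotation counted too, chosen after seeing the data, the count was 3 (from 0) for ABT-869 against DMSO in MV4-11, 9 (from 5) for combination against DMSO in MV4-11, 12 (from 7) for MOLM-14 against MV4-11 with DMSO, 5 (from 2) for SAHA response in MOLM-14 minus MV4-11 and 11 (from 7) for combination response in MOLM-14 minus MV4-11. With arrays centred on their medians, the count was 3 (from 5) for combination against DMSO in MV4-11, 0 (from 2) for SAHA against DMSO in MOLM-14 and 0 (from 2) for SAHA response in MOLM-14 minus MV4-11. On the groups compared alone, the count was 0 (from 5) for combination against DMSO in MV4-11, 0 (from 2) for SAHA against DMSO in MOLM-14, 0 (from 3) for combination against DMSO in MOLM-14, 1 (from 4) for combination against ABT-869 in MOLM-14 and 0 (from 7) for MOLM-14 against MV4-11 with DMSO. With quantile normalization, the count was 5 (from 2) for SAHA against DMSO in MOLM-14, 6 (from 3) for combination against DMSO in MOLM-14 and 7 (from 4) for combination against ABT-869 in MOLM-14. With each array left out in turn, the count ran from 2 to 4 for combination against DMSO in MV4-11, 0 to 2 for SAHA against DMSO in MOLM-14, 1 to 4 for combination against DMSO in MOLM-14, 2 to 6 for combination against ABT-869 in MOLM-14 and 0 to 3 for SAHA response in MOLM-14 minus MV4-11. Same-numbered arrays of a line had correlations of their deviations from -0.19 to 0.184 in MV4-11 and -0.0634 to 0.328 in MOLM-14, so not every pair exceeded 0.1 and the replicate numbers were not taken as pairs. In MOLM-14, however, 7 of 12 arrays correlated best with their own number (2 of 12 in MV4-11). Replicate 1 of MOLM-14 lay above its group mean in all 4 groups for HSPH1, HSP90AA1, HSP90AB1 and HSPE1. Replicate 3 of MOLM-14 did so for HSPA1A and HSPA1B. With the replicate number as a block the count was 3 (from 5) for combination against DMSO in MV4-11, and within 1.5 times for the other comparisons. The block lost the calls with the combination in MV4-11 on HSP90AA1 214328_s_at (adjusted p = 0.106) and HSPH1 235573_at (adjusted p = 0.0761), and those on the difference between the lines on HSPH1 235573_at (adjusted p = 0.0701) and HSP90AA1 211968_s_at (adjusted p = 0.0699).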
